A study of Homo sapiens with 8 samples.

Results

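The cGAS-STING pathway genes examined here were 6 genes taken by name, cGAS (CGAS), STING (STING1), TREX1, ENPP1, TBK1 and IKBKE, of the 57722 genes shared by the 2 deposited tables. cGAS is listed under its older symbol MB21D1 and STING under TMEM173. All 6 were found in both tables, 5 had at least 1 count in some library, and 4 passed the filter on low counts in both lines.

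The libraries came from Molm13 and THP1, human acute myeloid leukemia (AML) cell lines. The cells carried a control shRNA (shCtrl, genotype given as WT) or an shRNA against PRMT9 (shPRMT9), an arginine methyltransferase, and doxycycline (Dox) induction was given to all 8 libraries, controls included. Each of the 4 groups held 2 libraries, made from polyA RNA. The numbers 1 and 2 of the libraries were read as replicates, although the study numbers its hairpins in the same way, so it is open whether both shPRMT9 libraries of a line express 1 hairpin or different ones. The labels do not say whether replicates were separate cultures, and the p-values then measure only the spread between these libraries. The letters OCI also stand in the sample names of the THP1 libraries. The lines come in separate tables, so line and handling cannot be told apart.

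cGAS binds double-stranded DNA in the cytosol and makes the second messenger cGAMP. cGAMP binds STING on the endoplasmic reticulum, STING moves to the Golgi, and the kinase TBK1, together with the related kinase IKKε encoded by IKBKE, phosphorylates STING and the transcription factor IRF3, which turns on type I interferon (IFN) and, through it, IFN-stimulated genes (ISGs). TREX1, an exonuclease, removes cytosolic DNA before cGAS can bind it, and ENPP1, an ectoenzyme, hydrolyzes cGAMP outside cells.

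Library totals ranged from 18720950 to 27356870 counts. PRMT9 had 332 and 289 counts in Molm13 with shCtrl and 41 and 56 with shPRMT9, and 317 and 352 against 60 and 68 in THP1. It fell by 2.68 on the log2 scale in Molm13 (SE 0.14, edgeR FDR 1.2e-21) and by 2.29 in THP1 (SE 0.13, edgeR FDR 3.5e-14). All 8 myeloid markers looked at (CD33, SPI1, LYZ, MPO, CD14, ITGAM, CSF1R and PTPRC, the last shared by other leukocytes) had more than 3 counts in each group. Their summed level was 1203 to 1207 CPM (counts scaled to a common depth per library) in Molm13 shCtrl and 1993 to 2025 in shPRMT9, and 2429 to 2442 and 3786 to 3936 in THP1. LYZ had the highest mean of the 8 in each group, 634 and 998 CPM in Molm13 and 1889 and 3100 in THP1. PTPRC had 302 and 561 CPM in Molm13. In both lines 7 of the 8 had a higher mean level with shPRMT9 and MPO a lower one. CD14 had 4 to 6 counts in the Molm13 shCtrl libraries. The T cell markers were at or near 0 (0 of 3 above 3 counts in any group). Of the 4 B cell markers, PAX5 was the main one detected, with 741 to 866 counts in Molm13, and in THP1 64 to 86 counts with shCtrl and 276 to 298 with shPRMT9. The summed B cell level was 42.5 to 42.7 CPM in Molm13 shCtrl and 39.17 to 39.97 in shPRMT9, and 3.55 to 4.16 and 12.1 to 12.9 in THP1, while MS4A1 did not exceed 1 count. The summed myeloid level was thus higher with shPRMT9 in both lines and the summed B cell level in THP1, and their part in the results below was not tested. In bulk RNA, fewer cells of a kind and less RNA per cell cannot be told apart.

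Of the pathway genes, only IKBKE rose with PRMT9 KD in both lines, and the share of all genes that did so was not counted. Over all genes tested, 33.4% rose and 33.5% fell in Molm13, and 19.0% rose and 18.6% fell in THP1. In Molm13, STING1 and IKBKE rose about equally, TBK1 fell and CGAS differed by less than the spread between replicates. In THP1, IKBKE and TBK1 rose, CGAS rose slightly, and STING1 and ENPP1 did not pass the test. With the difference between the lines tested directly, the effect of PRMT9 KD on STING1 and TBK1 was unlike in the 2 lines, whereas that on IKBKE was not shown to differ. Of all genes tested for this difference, 22.8% had a higher and 19.4% a lower effect in THP1. Levels are given as CPM on 1 scale over the 8 libraries, and tests as edgeR's quasi-likelihood test in each line alone, with Benjamini-Hochberg adjustment (FDR) over all genes tested.

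**Figure D1:**
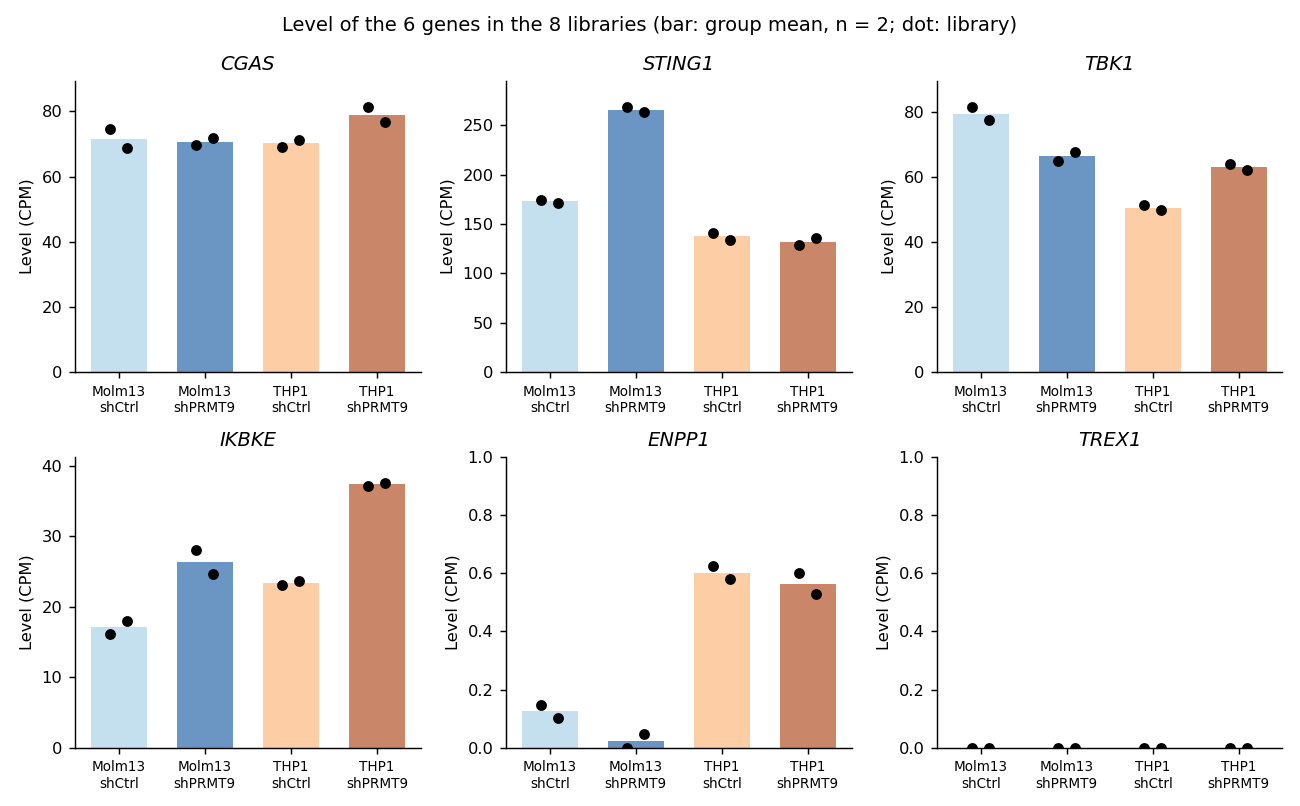
Level of each gene (y axis, CPM, from 0) in the 4 groups (x axis). Bars are group means of 2 libraries and dots are libraries. STING1 is higher with shPRMT9 in Molm13 alone, TBK1 is lower with shPRMT9 in Molm13 and higher in THP1, IKBKE is higher with shPRMT9 in both lines, ENPP1 stays below 1 CPM and TREX1 is at 0.

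The DNA sensor CGAS (ENSG00000164430, chromosome 6, 73413515 to 73452276, minus strand, GRCh38) had 1522 and 1344 counts in Molm13 with shCtrl and 1315 and 1528 with shPRMT9, or 74.6 and 68.6 against 69.6 and 71.8 CPM. The shPRMT9 libraries lay between the 2 controls. The mean was 71.6 ± 4.23 CPM (SD, n = 2) in shCtrl and 70.7 ± 1.52 CPM in shPRMT9. The log2 fold change was -0.01 (SE 0.05, edgeR FDR 0.84), and its 95% interval allowed a fold between 0.931 and 1.06. In THP1, CGAS had 1772 and 1970 counts with shCtrl and 2031 and 1893 with shPRMT9, or 69.0 and 71.3 against 81.2 and 76.7 CPM. Both shPRMT9 libraries were above both controls once depth was accounted for. CGAS rose by 0.16 on the log2 scale (SE 0.05, edgeR FDR 0.0060), a fold of 1.12 with an interval of 1.05 to 1.20. This call was lost without shCtrl replicate 1 (FDR 0.069) or without shPRMT9 replicate 1 (FDR 0.073).

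The adaptor STING1 (ENSG00000184584, chromosome 5, 139475534 to 139482935, minus strand) had 3560 and 3359 counts in Molm13 with shCtrl and 5066 and 5608 with shPRMT9, or 174.5 and 171.5 against 268.2 and 263.4 CPM. The groups were far apart compared with the spread within them. STING1 rose by 0.63 on the log2 scale (SE 0.03, edgeR FDR 8.4e-23), a fold of 1.54 with an interval of 1.48 to 1.61. In THP1, STING1 had 3612 and 3708 counts with shCtrl and 3225 and 3342 with shPRMT9, or 140.7 and 134.3 against 128.9 and 135.4 CPM. The groups overlapped. The log2 fold change was -0.06 (SE 0.04, edgeR FDR 0.24), with an interval for the fold of 0.904 to 1.01, so that a rise of the size seen in Molm13 lay outside it. STING1 shares no exon base with another gene in GENCODE release 29.

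The kinase TBK1 (ENSG00000183735, chromosome 12, 64451880 to 64502108, plus strand) had 1659 and 1519 counts in Molm13 with shCtrl and 1226 and 1443 with shPRMT9, or 81.3 and 77.6 against 64.9 and 67.8 CPM. Both shPRMT9 libraries were below both controls. TBK1 fell by 0.25 on the log2 scale (SE 0.04, edgeR FDR 3.1e-06), a fold of 0.84 with an interval of 0.789 to 0.893. In THP1, TBK1 had 1314 and 1379 counts with shCtrl and 1598 and 1530 with shPRMT9, or 51.2 and 49.9 against 63.9 and 62.0 CPM. Here both shPRMT9 libraries were above both controls, and TBK1 rose by 0.31 on the log2 scale (SE 0.05, edgeR FDR 1.3e-05), a fold of 1.24 with an interval of 1.15 to 1.33. Of the 4762 exon bases of TBK1, 702 (14.7%) lie across from exons of a gene on the other strand, whose reads cannot be told apart if counting ignored strand. The strand setting is not given in the sources used here.

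IKBKE (ENSG00000263528, chromosome 1, 206470476 to 206496889, plus strand) encodes IKKε, the kinase most closely related to TBK1. It had 328 and 353 counts in Molm13 with shCtrl and 529 and 525 with shPRMT9, or 16.1 and 18.0 against 28.0 and 24.7 CPM. IKBKE rose by 0.63 on the log2 scale in Molm13 (SE 0.08, edgeR FDR 2.2e-09), a fold of 1.55 with an interval of 1.39 to 1.73. In THP1, it had 591 and 653 counts with shCtrl and 930 and 926 with shPRMT9, or 23.0 and 23.6 against 37.2 and 37.5 CPM. It rose by 0.67 (SE 0.06, edgeR FDR 1.2e-09), a fold of 1.59 with an interval of 1.46 to 1.74. In both lines both shPRMT9 libraries were above both controls. Exons of genes on the other strand lie across from 4.1% of the exon bases of IKBKE and 4.3% of those of CGAS.

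The cGAMP hydrolase ENPP1 (ENSG00000197594, chromosome 6, 131808016 to 131895155, plus strand) was near the limit of detection. It had 3 and 2 counts in Molm13 with shCtrl and 0 and 1 with shPRMT9, too few to be tested in that line. In THP1, it had 16 and 16 counts with shCtrl and 15 and 13 with shPRMT9. With depth taken into account, the ratio of the summed THP1 counts was 0.917, with an exact 95% counting interval of 0.532 to 1.57, and the log2 fold change was -0.10 (SE 0.41, edgeR FDR 0.88). A change within that interval is not excluded by these counts. A count of 0 allows up to 3 counts, or 0.108 to 0.159 CPM in these libraries. The interval and this limit cover counting error only.

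The exonuclease TREX1 (ENSG00000213689, chromosome 3, 48465811 to 48467645, plus strand) was listed at 0 in all 8 libraries. Its level is not read from these counts, and the cause of the zeros was not tested. All 1835 bases of its span lie inside a gene of the same strand, a second entry for ATRIP (48446710 to 48467645). In GENCODE release 29 all of its 1515 exon bases (100%) are also exon bases of ATRIP. The exon length listed with the counts is 1835 bases, so the annotations differ. Sharing was thus not shown for every counted base. ATRIP encodes a partner of the checkpoint kinase ATR. Counting that leaves out reads shared by 2 genes gives no count to a gene whose exon bases are all shared. The second ATRIP entry itself had 3 to 10 counts in Molm13 and 6 to 13 in THP1. TREX1 was not tested.

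**Figure D2:**
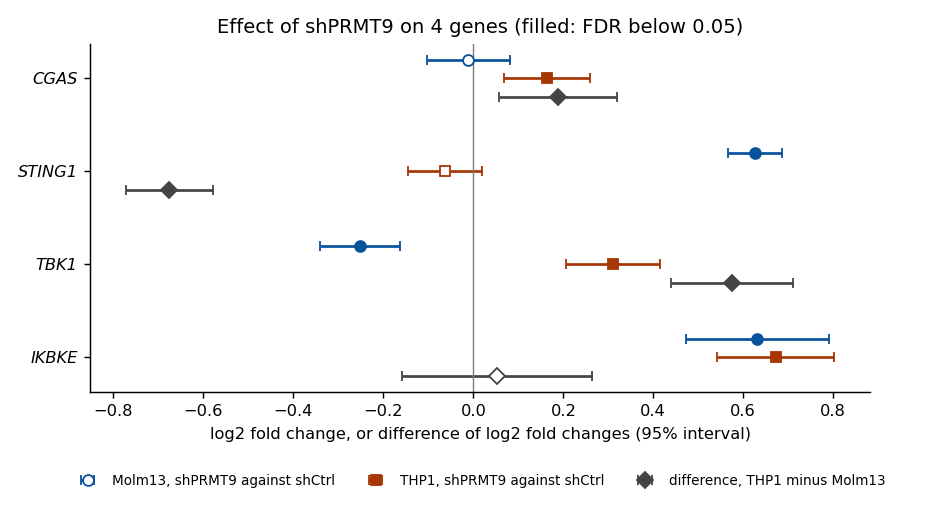
Log2 fold change of shPRMT9 against shCtrl in Molm13 (blue circles) and THP1 (red squares), and the difference of the 2 effects (grey diamonds, THP1 minus Molm13), for the 4 genes tested in both lines (y axis). Bars are 95% intervals and filled symbols have an FDR below 0.05. The intervals of IKBKE in the 2 lines overlap, while those of STING1 and of TBK1 lie apart.

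These counts have to be read against a transcriptome that moved widely. In Molm13, 4 of the 6 genes were tested, 2 rose and 1 fell, while 33.4% of the 16446 genes tested rose and 33.5% fell. In THP1, 5 were tested and 3 rose, while 19.0% of the 16294 genes tested rose and 18.6% fell. The rule for differentially expressed genes in the study's methods also asks for a fold above 1.5 in either direction. It further asks for an RPKM (CPM divided by exon length in kilobases) above 1 in at least 1 library. By this rule STING1 and IKBKE passed in Molm13, where 11.4% of genes passed as higher and 11.3% as lower. Their folds, 1.54 and 1.55, were just above the limit, and their intervals (1.48 to 1.61 and 1.39 to 1.73) reached below it. Only IKBKE of the 6 passed in THP1, where 3.83% of genes passed as higher and 2.39% as lower. Its interval there (1.46 to 1.74) also reached below 1.5. For its PRMT9 KD signature the study used a higher fold limit, which no tested gene of the 6 reached. In Molm13, 3 of the 4 tested genes had groups that did not overlap, against 82.0% of all genes tested, and in THP1 3 of 5, against 66.2%. By size, the change of IKBKE exceeded that of 71.2% of genes in Molm13 and 88.9% in THP1, counted without regard to direction. The change of STING1 exceeded that of 70.9% in Molm13 and 18.3% in THP1. TBK1 stood at 33.9% and 67.5%, and CGAS at 1.72% and 43.9%.

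**Figure D3:**
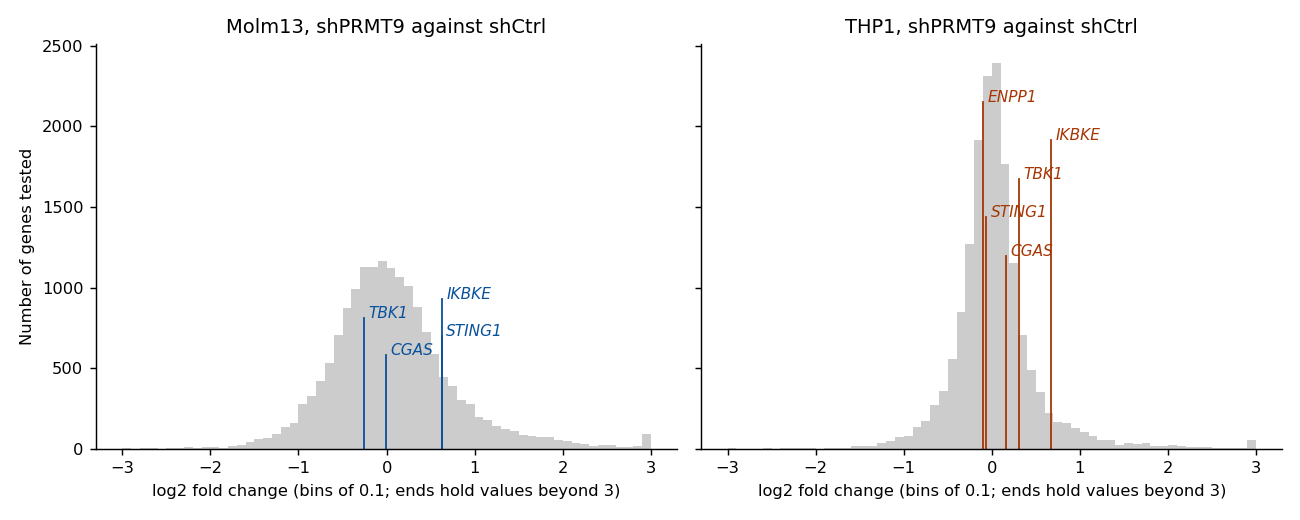
Histograms of the log2 fold changes of all genes tested (x axis, bins of 0.1, end bins holding values beyond 3; y axis, number of genes) in Molm13 (left) and THP1 (right), with vertical lines at the named genes. The height of a line carries no value. The spread of all genes is wider in Molm13 than in THP1, so that nearly the same change of IKBKE exceeds 71.2% of genes in Molm13 and 88.9% in THP1.

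The difference between the lines was tested in 1 fit of all 8 libraries over 19288 genes, in which 22.8% of genes had a higher and 19.4% a lower effect of PRMT9 KD in THP1 than in Molm13. Of the 5 genes tested there, 2 (CGAS and TBK1) had a higher effect and 1 (STING1) a lower one in THP1. The effect on STING1 was lower by 0.68 on the log2 scale (value -0.68, SE 0.05, edgeR FDR 2.0e-22). The effect on TBK1 was higher in THP1 by 0.58 (SE 0.07, edgeR FDR 5.4e-12), with a fall in one line and a rise in the other. For CGAS the difference was 0.19 (SE 0.07, edgeR FDR 0.015). It was no longer past the threshold in 7 of 14 alternative settings, among them scaling by library size alone (FDR 0.075), DESeq2 (FDR 0.15) and leaving out any one of 5 libraries: either Molm13 shPRMT9 library, Molm13 shCtrl replicate 1, or replicate 1 of either THP1 group. For IKBKE the difference was 0.05 (SE 0.11, edgeR FDR 0.77), with an interval of -0.16 to 0.26. The ENPP1 difference was not past the threshold (edgeR FDR 0.26), with at most 3 counts in a Molm13 library.

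The lines also differed before PRMT9 KD. Between the 2 shCtrl groups, 40.1% of genes were higher and 42.7% lower in THP1. TBK1 was lower in THP1 than in Molm13, with 50.6 ± 0.898 against 79.4 ± 2.66 CPM (SD, n = 2), a log2 difference of -0.65 (SE 0.05, edgeR FDR 9.0e-23). STING1 was lower by a log2 difference of -0.33 (SE 0.03, edgeR FDR 9.2e-15). IKBKE was higher in THP1, with 23.3 ± 0.435 against 17.1 ± 1.38 CPM, a log2 difference of 0.45 (SE 0.08, edgeR FDR 2.7e-07). The CGAS levels of the shCtrl groups differed by less than their spread (log2 difference -0.03, SE 0.05, edgeR FDR 0.56, interval -0.12 to 0.06). ENPP1 had 32 counts in all in THP1 shCtrl against 5 in Molm13 shCtrl, a ratio of 4.85 with an exact 95% counting interval of 1.87 to 15.9. It had too few counts to be tested in Molm13 alone and entered the joint fit through its THP1 counts. The test of that fit is therefore not used as support for a higher level in THP1. With the tables separate, these baseline differences are between libraries of 2 lines and of 2 tables at once.

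Per length of exon, the order of the levels was STING1, then CGAS, TBK1, IKBKE and ENPP1 in each of the 4 groups. STING1 reached 44.9 RPKM on average in Molm13 shCtrl, 69.0 in Molm13 shPRMT9, 35.7 in THP1 shCtrl and 34.3 in THP1 shPRMT9, above 93.5% to 96.7% of the 19288 genes that passed the filter in the fit of all libraries. CGAS had 17.2, 17.0, 16.9 and 19.0 RPKM in the same groups, and TBK1 16.7, 13.9, 10.6 and 13.2. In Molm13 shCtrl the neighbours CGAS (16.5 and 18.0 RPKM) and TBK1 (16.3 and 17.1 RPKM) overlapped, and they were apart in the other groups. IKBKE had 4.50, 6.95, 6.16 and 9.85 RPKM. The level of IKBKE relative to TBK1 was 0.270 ± 0.0308 (SD, n = 2) in Molm13 shCtrl and 0.50 ± 0.0601 in shPRMT9, and 0.580 ± 0.0211 and 0.746 ± 0.0207 in THP1. TBK1 was thus the more abundant of the 2 kinase transcripts in each group, by the least in THP1 with PRMT9 KD. The level of STING1 relative to CGAS was 2.61 ± 0.122 and 4.06 ± 0.139 in Molm13, and 2.12 ± 0.119 and 1.81 ± 0.136 in THP1.

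**Figure D4:**
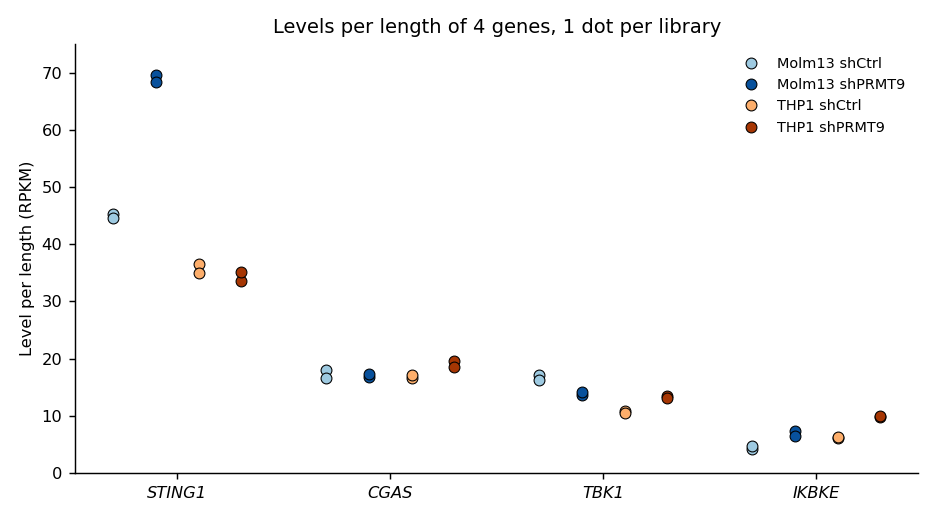
Level per length of exon (y axis, RPKM, from 0) of 4 genes (x axis), with 1 dot per library coloured by group. STING1 lies highest in each group, between 33.5 and 69.7 RPKM, and CGAS and TBK1 overlap in Molm13 shCtrl alone.

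The genes whose pattern over the 8 libraries was most like that of each of the 4 genes were found among 11977 genes by the root mean square difference of mean-centred log2 levels. For IKBKE they were TMEM63A (difference 0.058), TRIM25 (0.088) and TRIM56 (0.091). For STING1 they were GGA2 (0.034), COQ8B (0.055) and PCED1A (0.057). For CGAS they were AKIRIN2 (0.036), NEDD8 (0.039) and KIAA0196 (0.040), and for TBK1 BABAM1 (0.043), SEC23IP (0.056) and HNRNPLL (0.056). The 8 libraries are 4 groups of 2, so these are descriptions over few independent points.

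The promoter of IKBKE is shown because IKBKE rose in both lines. Windows of 250 bases before and 50 bases after the start of the gene were taken from RefSeq (GRCh38.p14) for 4 of the 6 genes. The 250 bases before the start of IKBKE are given 5′ to 3′ at chr1:206470226-206470475, plus strand, with CG dinucleotides in capitals.
IKBKE: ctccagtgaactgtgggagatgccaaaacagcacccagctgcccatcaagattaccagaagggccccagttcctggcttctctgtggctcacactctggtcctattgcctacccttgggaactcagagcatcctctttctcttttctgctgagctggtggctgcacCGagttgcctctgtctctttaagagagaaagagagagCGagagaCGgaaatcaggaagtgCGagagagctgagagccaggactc
This stretch holds 4 CG dinucleotides, and 29.3% of 35116 RefSeq windows hold fewer. The 250 bases before the RefSeq start of TBK1 (chr12:64451870-64452119) hold 27, and 82.3% of windows hold fewer. Most of these bases lie past the TBK1 start of 64451880 given above, so the stretches are not placed alike against the listed gene starts. By CG content the stretches of the 2 related kinases stand on either side of the middle. ENPP1 has 28 and TREX1 has 3.

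The windows were searched on both strands for the letters of the IFN-stimulated response element (ISRE, written as GAAA, any 2 bases and GAAA), of the gamma-activated site (GAS, TTC, any 3 bases and GAA) and of an NF-κB site. Some matches of different motifs may overlap. None of the 4 windows (IKBKE, TBK1, ENPP1 and TREX1) held any of these letters, while 3.57% of all windows held the ISRE, 7.66% the GAS and 11.27% the NF-κB letters. Of 10 windows of the pathway's output genes, 6 held the ISRE letters. A match says only that the letters are there, and the lack of one that they are not in this window. As examples, 40 bases around a match of each of CXCL10 (chr4:76023694-76023733, minus strand), IFIT1 (chr10:89392492-89392531, plus strand) and IFIT3 (chr10:89327826-89327865, plus strand) are given with the ISRE letters in capitals (the IFIT1 stretch holds 2 matches), since these are output genes that rose in both lines.
CXCL10: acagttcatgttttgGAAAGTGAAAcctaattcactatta
IFIT1: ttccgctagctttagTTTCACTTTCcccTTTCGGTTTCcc
IFIT3: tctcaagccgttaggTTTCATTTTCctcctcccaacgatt

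To place the 6 genes in their pathway, 74 further genes of the pathway were grouped by role. In Molm13, 63 were tested, of which 36 rose, 18 fell and 9 did not pass, and the median of their log2 fold changes was 0.22, against 0.00 for all genes tested. In THP1, 66 were tested, of which 34 rose, 13 fell and 19 did not pass, with a median of 0.16 against 0.00. Over all genes tested, 33.4% rose and 33.5% fell in Molm13, and 19.0% rose and 18.6% fell in THP1, and the counts of each role are to be read beside these shares. Of the genes that passed, none changed sign with DESeq2 size factors or library size alone, and 1 call in THP1 was lost with library size alone. With DESeq2 the genes called went from 54 to 47 in Molm13 and from 47 to 37 in THP1, and without THP1 shCtrl replicate 1 from 47 to 37. Changes of these genes are log2 fold changes from edgeR, with an FDR below 0.05 wherever a gene is said to have risen or fallen.

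**Figure D5:**
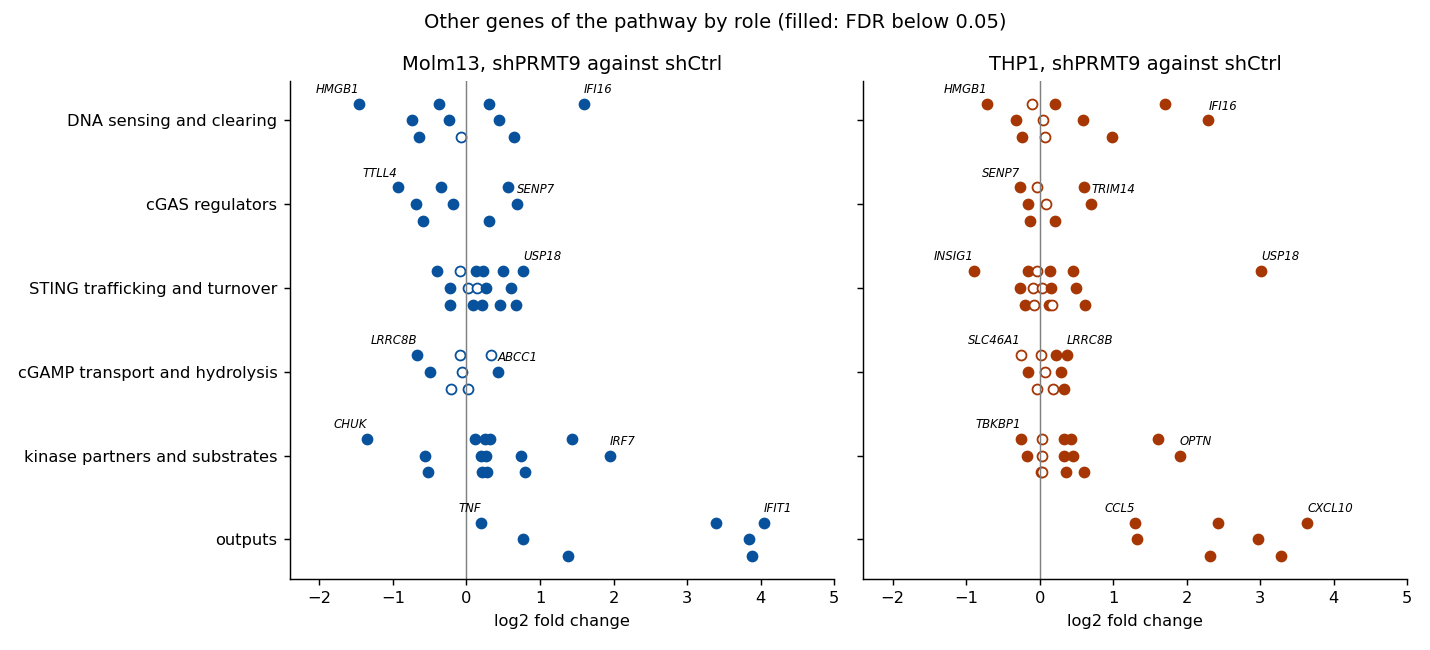
Log2 fold change (x axis) of the tested genes of the pathway list in 6 role groups (y axis) in Molm13 (left) and THP1 (right). Filled dots have an FDR below 0.05, most of the lowest and highest genes of each role are named, and the offset of dots within a role carries no value. The output genes lie furthest to the right, up to 4.04 in Molm13 and 3.64 in THP1.

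The outputs of the pathway are IFNs, chemokines and ISGs. Of the 12 listed, 7 were tested, and all 7 rose in both lines (all genes, 33.4% in Molm13 and 19.0% in THP1). The median of their log2 fold changes was 3.40 in Molm13 and 2.43 in THP1. The other outputs (IFNB1, IFNA1, IFNA2, IFNL1 and IL6) had too few counts to be tested. IFIT1, an ISG that binds foreign RNA, rose by 4.04 on the log2 scale (SE 0.10, edgeR FDR 4.2e-33) in Molm13 and by 3.28 (SE 0.06, edgeR FDR 5.7e-26) in THP1. The chemokine CXCL10 rose by 3.88 (SE 0.15) and 3.64 (SE 0.14). The inflammatory cytokine TNF rose by 0.20 (SE 0.06, edgeR FDR 0.0027) in Molm13 and by 1.32 (SE 0.12, edgeR FDR 6.2e-10) in THP1, and the chemokine CCL5 by 0.77 (SE 0.07) and 1.30 (SE 0.07). IFNB1, the IFN-β gene that IRF3 acts on directly, had too few counts to be tested. It had 0 and 1 counts in Molm13 shCtrl and 3 and 2 in shPRMT9, and 1 and 1 in THP1 shCtrl and 10 and 8 in shPRMT9. The THP1 ratio was 9.43 with an exact 95% counting interval of 2.26 to 83.8. The ISGs of this list were also the kind of gene the study reported on from these libraries, so their direction is not independent evidence.

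Of the partners and substrates of TBK1 and IKKε, 11 of 14 rose and 3 fell in Molm13 (all genes, 33.4% and 33.5%), and 8 of 14 rose and 2 fell in THP1 (19.0% and 18.6%). IRF7, an IRF3 relative that is itself induced by IFN, rose by 1.95 (SE 0.08, edgeR FDR 6.6e-25) in Molm13 and by 1.61 (SE 0.05, edgeR FDR 2.0e-19) in THP1. IRF3 rose by 0.22 (SE 0.05, edgeR FDR 4.4e-04) in Molm13, and in THP1 its log2 fold change was 0.02 (SE 0.05, edgeR FDR 0.76). OPTN, an adaptor that binds TBK1, rose by 1.44 (SE 0.07) and 1.90 (SE 0.08), and the scaffold TANK by 0.32 (SE 0.06) and 0.45 (SE 0.06). CHUK, the kinase IKKα of the NF-κB pathway, fell by 1.36 (SE 0.05, edgeR FDR 1.3e-27) in Molm13, with a log2 fold change of 0.03 in THP1 (SE 0.04, edgeR FDR 0.69). MAVS, the adaptor of the RNA sensors, rose by 0.28 (SE 0.03) in Molm13 and fell by 0.18 (SE 0.04) in THP1. TBKBP1, another TBK1 adaptor, likewise rose by 0.25 (SE 0.08) and fell by 0.26 (SE 0.10). In all, 7 of the 14 rose in both lines and 3 (MAVS, TBKBP1 and TRAF3) moved in opposite directions. The share of all genes that did either was not counted.

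Of the genes for DNA sensing and clearing, 4 of 10 tested rose and 5 fell in Molm13 (all genes, 33.4% and 33.5%), and 5 of 11 rose and 3 fell in THP1 (19.0% and 18.6%). IFI16, a DNA-binding protein that works with cGAS and STING, rose by 1.59 (SE 0.04, edgeR FDR 3.9e-32) in Molm13 and by 2.29 (SE 0.06, edgeR FDR 1.6e-22) in THP1, from 47.1 ± 0.613 to 141 ± 0.951 CPM and from 18.2 ± 0.942 to 89.5 ± 0.957 CPM (SD, n = 2). SAMHD1, a dNTP hydrolase, rose by 0.44 (SE 0.03) and 0.59 (SE 0.03). DNASE2, the lysosomal DNase, rose by 0.65 (SE 0.06) and 0.99 (SE 0.05). HMGB1, a nuclear DNA-binding protein, fell by 1.46 (SE 0.03, edgeR FDR 7.7e-35) in Molm13 and by 0.72 (SE 0.03, edgeR FDR 1.2e-16) in THP1. BANF1, which competes with cGAS for DNA, fell by 0.64 (SE 0.07) in Molm13 and rose by 0.20 (SE 0.04, edgeR FDR 5.2e-04) in THP1.

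Of the 8 regulators of cGAS, 3 rose and 5 fell in Molm13 (all genes, 33.4% and 33.5%), and 3 rose and 3 fell in THP1 (19.0% and 18.6%). TRIM56, a ubiquitin ligase for cGAS, rose by 0.57 (SE 0.03) and 0.60 (SE 0.04). TRIM14, which protects cGAS from degradation, fell by 0.34 (SE 0.05, edgeR FDR 1.5e-07) in Molm13 and rose by 0.71 (SE 0.03, edgeR FDR 1.9e-16) in THP1. TTLL4, a glutamylase, also fell in Molm13 by 0.93 (SE 0.06) and rose in THP1 by 0.22 (SE 0.05), and the SUMO protease SENP7 rose by 0.69 (SE 0.06) and fell by 0.27 (SE 0.09, edgeR FDR 0.026). These 3 regulators moved in opposite directions in the 2 lines, and the share of all genes that did so was not counted.

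Of the 16 genes for STING trafficking and turnover, 10 rose and 3 fell in Molm13 (all genes, 33.4% and 33.5%), and 7 rose and 4 fell in THP1 (19.0% and 18.6%). USP18, an ISG that takes part in the deubiquitination of STING, rose by 0.77 (SE 0.17, edgeR FDR 1.0e-04) in Molm13 and by 3.01 (SE 0.08, edgeR FDR 3.6e-22) in THP1. SURF4, which returns STING from the Golgi to the endoplasmic reticulum, fell by 0.23 (SE 0.03) in Molm13 and rose by 0.45 (SE 0.03) in THP1. INSIG1, a protein of the endoplasmic reticulum membrane known for its part in sterol sensing, rose by 0.13 (SE 0.03) in Molm13 and fell by 0.89 (SE 0.04) in THP1. STIM1, which holds STING at the endoplasmic reticulum, had log2 fold changes of 0.03 (SE 0.06, edgeR FDR 0.73) and -0.08 (SE 0.05, edgeR FDR 0.21). NLRC3, an inhibitor of STING, rose by 0.26 in Molm13 (edgeR FDR 1.6e-04), with a log2 fold change of -0.03 in THP1 (edgeR FDR 0.95).

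Of the genes for cGAMP transport and hydrolysis, 1 of 8 tested rose and 2 fell in Molm13 (all genes, 33.4% and 33.5%), and 4 of 10 rose and 1 fell in THP1 (19.0% and 18.6%). The importer SLC19A1 fell by 0.49 (SE 0.05) in Molm13 and by 0.15 (SE 0.04, edgeR FDR 0.0080) in THP1, and the exporter ABCC1 rose by 0.43 (SE 0.06) and 0.29 (SE 0.06). LRRC8A, the core subunit of a volume-regulated channel that carries cGAMP, had a log2 fold change of 0.02 (SE 0.08, edgeR FDR 0.81) in Molm13 and rose by 0.22 (SE 0.06, edgeR FDR 0.0041) in THP1. Its partner LRRC8C had -0.06 (SE 0.03, edgeR FDR 0.15) and -0.04 (SE 0.03, edgeR FDR 0.41). LRRC8B fell by 0.67 (SE 0.07) in Molm13 and rose by 0.37 (SE 0.05) in THP1. The importer SLC46A1, not tested in Molm13, had a log2 fold change of -0.26 in THP1 (edgeR FDR 0.15). SMPDL3A, a cGAMP hydrolase, had a log2 fold change of -0.21 (SE 0.13, edgeR FDR 0.16) in Molm13 and rose by 0.34 (SE 0.10, edgeR FDR 0.011) in THP1.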

How the data were processed

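PolyA RNA-seq libraries of Molm13 and THP1 were compared. Per the labels, the submitters' processing notes name TopHat2 2.0.8, HTSeq 0.11.2, edgeR 3.30.3 and hg38. The authors deposited raw counts of reads per gene, not normalized, in 1 table per line. Annotation and strand setting are not given in the sources used here.

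Scaling, levels and tests were run in R 4.3.3 (edgeR 4.0.16, with limma 3.58.1, and DESeq2 1.42.0 as an alternative). Sequence searches, exon overlaps and figures were run in Python. Counts were scaled by TMM (joint factors 0.985 to 1.01), filtered by filterByExpr and tested by quasi-likelihood, with p-values adjusted after Benjamini and Hochberg and calls at an FDR below 0.05. SEs are the log2 fold change over the square root of F. RPKM used the exon lengths of the Molm13 table. Exon overlaps were read from GENCODE release 29, and overlaps of gene spans from the coordinates of the Molm13 table. CXorf56 was matched to STEEP1 by its RefSeq synonym.

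The genes and lists were chosen with earlier results of these data known. Named genes are the 6, those overlapping them, the extremes of each role and chosen members of the list. A further gene that this rule names is not reported here. IFIT3 and, for their opposite directions in the lines, TRAF3, NLRX1 and RNF5 were named after their values were seen. With 200 genes changed 2-fold in simulated counts, the test called 180 in Molm13, 161 in THP1 and 130 for the difference between lines. The simulation changed far fewer genes than were called in these data. Its fold was larger than any tested change of the 6 genes within a line, so this recovery does not carry over to them. Protein sequences were not used here.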

Additional observations from a re-analysis of the deposited data

Results flagged for a closer look

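The effect of PRMT9 KD differed between the lines for 3 of the 5 pathway genes tested and 27 of the pathway list genes named here. The test was edgeR's of the difference itself, with an FDR below 0.05. Over the whole list, 26 of 66 genes tested had a higher and 13 a lower effect in THP1. Of all 19288 genes tested, 22.8% had a higher and 19.4% a lower effect. The 27 include extremes and genes named after their values were seen, so their number is not a share to set beside these. Values are the log2 effect in THP1 minus that in Molm13. For the pathway genes they were 0.19 for CGAS, -0.68 for STING1 and 0.58 for TBK1. Among DNA sensing and clearing genes they were 0.71 for IFI16, 0.35 for DNASE2, 0.17 for SAMHD1, 0.86 for BANF1 and 0.76 for HMGB1. For regulators of cGAS they were 1.06 for TRIM14, 1.16 for TTLL4 and -0.94 for SENP7. For STING trafficking and turnover they were 2.25 for USP18, 0.69 for SURF4, -1.01 for INSIG1, -0.86 for NLRX1 and -0.64 for RNF5. For cGAMP transport and hydrolysis they were 1.06 for LRRC8B, 0.36 for SLC19A1 and 0.56 for SMPDL3A. For kinase partners and substrates they were 1.40 for CHUK, 0.86 for TRAF3, 0.48 for OPTN, -0.18 for IRF3, -0.33 for IRF7, -0.45 for MAVS and -0.49 for TBKBP1. For outputs they were 1.13 for TNF, 0.54 for CCL5, -0.75 for IFIT1 and -0.41 for IFIT3.

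In the list, 12 genes passed the test in both lines in opposite directions. Of these, 6 (BANF1, TRIM14, TTLL4, SURF4, LRRC8B and TRAF3) fell in Molm13 and rose in THP1, as TBK1 did, and 6 (SENP7, INSIG1, NLRX1, RNF5, MAVS and TBKBP1) rose in Molm13 and fell in THP1. The share of all genes that passed in opposite directions was not counted, so the 12 are not read as a trait of this list. The lines come in separate tables, and line and handling cannot be told apart.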

How the results depend on the processing

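STING1, TBK1 and IKBKE kept their direction in each line under every alternative setting, the omission of any 1 library included. Their side of the FDR threshold was also kept under other scalings, filters, DESeq2 and a single fit of the 8 libraries. Over these settings the log2 fold changes were 0.61 to 0.66 for STING1 in Molm13. For TBK1 they were -0.28 to -0.22 in Molm13 and 0.28 to 0.33 in THP1. For IKBKE they were 0.54 to 0.74 in Molm13 and 0.64 to 0.68 in THP1. The fold of IKBKE in Molm13 was below 1.5 without shCtrl replicate 1 (log2 0.54) or without shPRMT9 replicate 1 (log2 0.55). With the study's rule, 1 of the 6 genes was called in THP1 in place of 3. The difference between lines for CGAS was 0.14 with library size alone and 0.16 with DESeq2, both with an FDR above 0.05. Leaving out 1 library at a time, it was 0.096 to 0.206, and the CGAS change was 0.123 to 0.202 in THP1 and -0.066 to 0.043 in Molm13, where it changed sign without replicate 1 of either group. The IKBKE difference between lines ranged from -0.084 to 0.115, and the CGAS difference between shCtrl groups from -0.074 to 0.036, both with sign changes and neither called. The cause was not tested. Same-numbered libraries did not deviate together (correlation -0.04 in Molm13, -0.05 in THP1), so the numbers were not taken as pairs. With the replicate number as a block, 3 genes were called in each line, as without it, and the log2 fold change of STING1 in Molm13 was 0.63. With 2 libraries per group, a small difference such as that of CGAS rests on single libraries, and ENPP1 is limited by its counts.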
